A study of Mus musculus with 3 samples.

Results

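A set of 9 genes of calcium and calmodulin signalling was followed in RNA bound to tagged ribosomes of the mouse cerebral cortex: the CaMKII subunit genes Camk2a, Camk2b, Camk2d and Camk2g, the CaMKII inhibitor gene Camk2n1, the kinase gene Camk4, the pseudokinase gene Camkv, the calmodulin gene Calm2 and the neurogranin gene Nrgn. They were chosen by symbol, though with earlier results of these data known, and all 9 were found among the 32531 gene rows of the count tables. The material came from untreated adult C57BL/6J mice whose line is named Kcnip2-TRAP NIDA115. They carried the ribosomal protein Rpl10a fused to EGFP under control of Kcnip2, a potassium channel subunit gene, and ribosomes were immunopurified (IP) through EGFP with antibodies on magnetic beads. The 3 libraries, replicates 1 to 3, form a single group with 11602248, 13635132 and 14174384 gene counts. No input or untagged library was analysed here, so levels in the immunoprecipitate are given and enrichment is not, and RNA carried over from untagged cells is part of each level. The labels do not say whether the libraries came from separate animals or from pools, so every spread between them may be technical.

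Calmodulin is a small calcium sensor with EF-hand calcium-binding sites. When it has bound calcium it activates CaMKII, a holoenzyme of alpha, beta, delta and gamma subunits that then phosphorylates itself and can stay active after calcium has fallen. In forebrain neurons CaMKII is concentrated at excitatory synapses, where it acts in long-term potentiation. Neurogranin binds calmodulin at low calcium, Camk2n1 protein blocks the CaMKII catalytic site, and CaMKIV is a mainly nuclear kinase that is switched on by calmodulin and by the CaMKK kinases and acts on CREB.

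Calm2 and Calm3 encode the same calmodulin protein of 149 residues with different bases, which is what allows reads to be assigned to one of them. The first 90 coding bases are shown for both from the longest protein-coding transcript in GENCODE M21 (GRCm38). Capitals mark bases of Calm3 that differ from Calm2. Calm2 lies on the minus strand of chromosome 17 (this stretch spans chr17:87435879-87446795) and Calm3 on the minus strand of chromosome 7 (chr7:16917673-16923843). Each stretch is spread over 3 exons.
Calm2: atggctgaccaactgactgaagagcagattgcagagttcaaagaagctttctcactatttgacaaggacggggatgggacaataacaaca
Calm3: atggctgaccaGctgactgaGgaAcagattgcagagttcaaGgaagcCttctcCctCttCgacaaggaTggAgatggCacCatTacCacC
Calm3 differed from Calm2 at 15 of these bases and at 78 of the 447 coding bases. The longest identical run shared by the whole transcripts was 17 bases.

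The CaMKII subunits are close relatives as proteins and separable as RNA. Aligned residues were 84.3% to 88.3% identical over the 6 pairs, aligned coding bases 76.4% to 79.3%, and the longest identical transcript run of any pair was 32 bases, between Camk2a and Camk2b. A stretch of exon that is conserved in all of them holds the codons for arginine, glutamine, glutamate and threonine, where the threonine is the autophosphorylation site. It is shown for 3 subunits with those codons in capitals (Camk2b, minus strand, chr11:5988973-5989032; Camk2d, plus strand, chr3:126797708-126797767; Camk2g, minus strand, chr14:20760415-20760474; GRCm38).
Camk2b: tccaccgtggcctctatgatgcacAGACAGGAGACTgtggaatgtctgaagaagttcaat
Camk2d: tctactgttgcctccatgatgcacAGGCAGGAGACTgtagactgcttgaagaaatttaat
Camk2g: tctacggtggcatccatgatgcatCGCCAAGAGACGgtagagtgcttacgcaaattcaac

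Neurogranin binds calmodulin through an IQ motif. Its codons are in capitals below, within 1 exon (Nrgn, minus strand, chr9:37546046-37546108, GRCm38).
Nrgn: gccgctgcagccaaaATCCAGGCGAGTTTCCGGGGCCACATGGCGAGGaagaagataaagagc

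Levels are given as CPM, counts divided by the TMM-scaled library size, for 1 gene across libraries, and as CPM per kilobase of union exon (all annotated exons of the gene merged) where genes are set against each other. All 9 members passed the count filter. In GENCODE M21 (GRCm38) Calm2 occupies chr17:87433412-87446935, Camk2b chr11:5969644-6066362, Camk2d chr3:126596302-126846326, Camk2g chr14:20734875-20794088, Camk2n1 chr4:138454314-138460123, Camkv chr9:107935674-107949691 and Nrgn chr9:37544492-37552904. Their exons overlap those of no other gene, while Camk4 shares 2.21% of its exon bases with 2310026I22Rik on the other strand. Their summed counts came to 1.08%, 1.25% and 1.41% of the library in replicates 1, 2 and 3. Camk2a and Calm2 alone made up 0.857%, 0.995% and 1.13%.

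**Figure D1:**
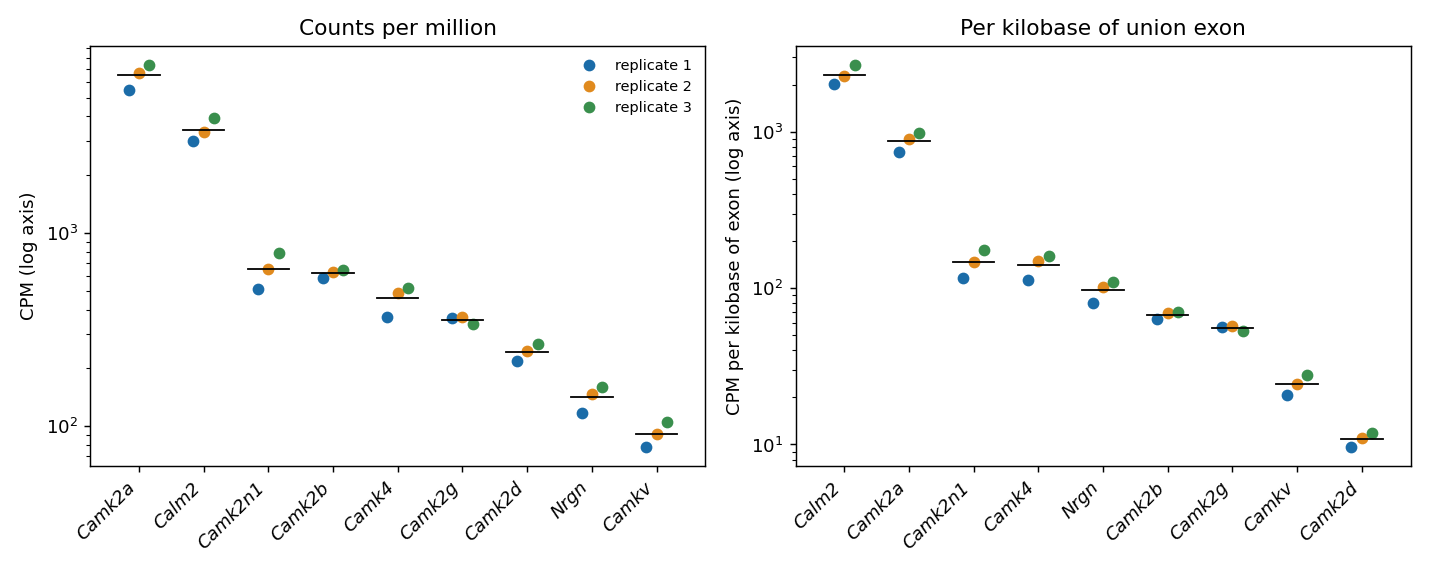
Level of the 9 members in each library (points, coloured by replicate) with the mean (bar), on log axes, as CPM (left) and as CPM per kilobase of union exon (right). Camk2a and Calm2 stand apart from the other 7 members in both panels, and change places between them.

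Calm2 was the highest member per kilobase. It was at 2971, 3322 and 3922 CPM in replicates 1, 2 and 3, which is 2025, 2264 and 2674 CPM per kilobase (mean 2321 ± 328 SD, n = 3). Its rank among the 23928 genes with a length was 4, 4 and 3. Replicate 3 was the highest library and replicate 1 the lowest, by 1.32-fold. Calm3, which is not one of the 9, was at 676, 659 and 621 CPM, highest in replicate 1 and so unlike Calm2.

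The log2 level of Calm2 per kilobase exceeded that of Calm3 by 2.86, 3.06 and 3.38 in replicates 1, 2 and 3 (mean 3.10 ± 0.26 SD, n = 3). The gap was thus positive in each library and widest in replicate 3. A calmodulin-like gene, Calml4, had 6 counts in replicate 2 and 0 elsewhere, and Calml3 had 0 in all 3.

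Camk2a, the alpha subunit of CaMKII and the one typical of forebrain excitatory neurons, was at 5506, 6694 and 7377 CPM in replicates 1, 2 and 3. Per kilobase this was 738, 897 and 988 (mean 874 ± 127 SD, n = 3), at ranks 19, 13 and 12. Replicate 1 was low and replicate 3 high, by 1.34-fold.

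The other CaMKII subunit genes lay far below Camk2a per kilobase. Camk2b, the beta subunit that binds actin filaments, was at 582, 629 and 640 CPM, or 67.6 ± 3.34 CPM per kilobase. Its log2 level per kilobase was 3.53, 3.70 and 3.82 below Camk2a in the 3 libraries. Camk2g, the gamma subunit, was at 361, 367 and 339 CPM, or 55.5 ± 2.34 per kilobase. It was the only member with its lowest value in replicate 3. Camk2d, the delta subunit best known from heart, was at 217, 246 and 267 CPM, or 10.8 ± 1.13 per kilobase. Its divisor is the least certain, since 28 annotated transcripts merge to 22493 exon bases while the longest has 5524.

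Within the family, Camk2a took 86.6% ± 1.48 (SD, n = 3) of the level per kilobase, Camk2b 6.75% ± 0.562, Camk2g 5.58% ± 0.896 and Camk2d 1.08% ± 0.0310. The shares were not the same in each library: Camk2a had 85.0%, 86.7% and 88.0% in replicates 1, 2 and 3, Camk2g 6.50%, 5.55% and 4.71%, and Camk2b 7.36%, 6.66% and 6.24%. The library with the least Camk2a thus had the largest Camk2b and Camk2g shares, a relation that shares of a common sum partly force. Per kilobase of the longest transcript the share of Camk2d was 2.75%, well above its 1.08% per kilobase of union exon.

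**Figure D2:**
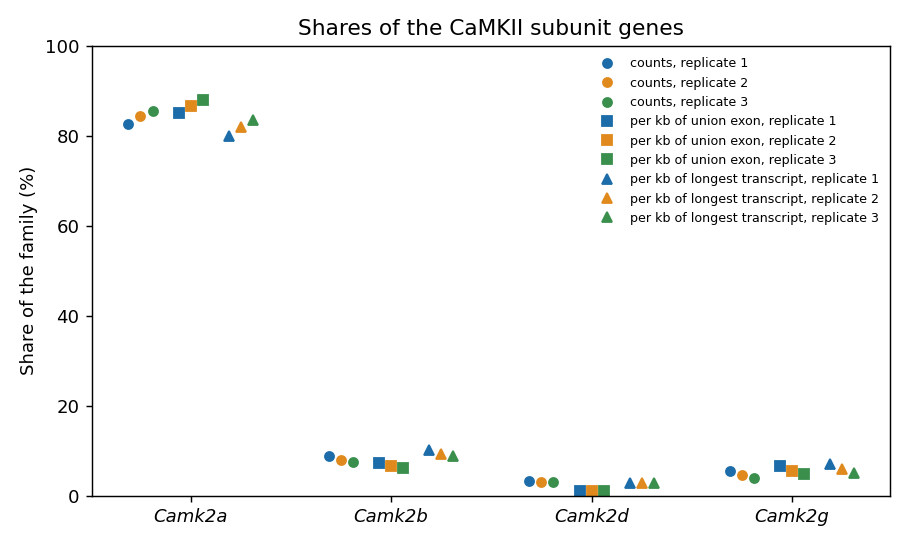
Share of each gene in the 4 CaMKII subunit genes, in percent, for each library (colours), by counts (circles), per kilobase of union exon (squares) and per kilobase of the longest transcript (triangles). Camk2a keeps 79.9% to 88.0% on all 3 scales, and the other subunit genes stay near or below 10.2%.

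Camk2n1, whose small protein of 78 residues inhibits CaMKII, was at 514, 650 and 784 CPM in replicates 1, 2 and 3, a 1.52-fold range and the widest of the members. Per kilobase it was at 146 ± 30.3 CPM (SD, n = 3), a log2 difference of 2.67, 2.62 and 2.49 below Camk2a. The related inhibitor gene Camk2n2 went the other way across libraries, at 55.4, 49.0 and 42.7 CPM. Per kilobase Camk2n1 was above Camk2n2 by 1.43, 1.94 and 2.41 on the log2 scale.

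Camk4 was at 367, 488 and 521 CPM, or 141 ± 24.97 CPM per kilobase (SD, n = 3), with replicate 1 below the other libraries. Of its upstream activators, Camkk2 was at 82.3 ± 3.62 CPM and Camkk1 at 59.7 ± 10.3 CPM. Per kilobase Camk4 was above Camkk2 by 3.83, 4.33 and 4.46 on the log2 scale. The size of this gap rests on the divisor. Camkk2 has 10921 merged exon bases and a longest transcript of 4861, and Camk4 has 3259 and 2717. Of the 6 genes listed with Camk4 for the CaM kinase cascade, the CaMKK genes included, Camk1d, a CaMKI isoform, was the highest by mean CPM, at 516 ± 71.3, and Camk1 the lowest, at 10.99 ± 2.80.

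Camkv, which encodes a vesicle-associated kinase-like protein without known catalytic activity, was at 78.1, 91.3 and 105 CPM, or 24.3 ± 3.53 per kilobase (SD, n = 3). Nrgn was at 117, 148 and 160 CPM, or 97.5 ± 15.2 per kilobase, at ranks 339, 236 and 204. Its log2 level per kilobase relative to Calm2 was -4.65, -4.48 and -4.60. Gap43, which encodes a growth cone and presynaptic protein of the same calmodulin-binding family, was at 90.2, 136 and 143 CPM, lowest in replicate 1 like Nrgn, and was below Nrgn per kilobase by 0.45, 0.19 and 0.23 on the log2 scale. Pcp4, another IQ-motif calmodulin binder, had 3, 0 and 3 counts, while its relative Pcp4l1 was at 394, 293 and 228 CPM.

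Ordered by mean log2 level per kilobase, the members ran Calm2, Camk2a, Camk2n1, Camk4, Nrgn, Camk2b, Camk2g, Camkv and Camk2d. Camk2n1 and Camk4 did not differ beyond their spread, with log2 differences of 0.04, -0.04 and 0.14. The other 7 pairs of neighbours kept their sign in all 3 libraries, with mean differences of over 2 SD. The narrowest of these was Camk2b over Camk2g, at 0.18, 0.26 and 0.41. An exact sign-flip test over 3 libraries cannot go below p = 0.25 (two-sided), the value of each of these 7. The order rests on the length divisor: per kilobase of the longest transcript Camk4 stood above Camk2n1, Camk2b above Nrgn and Camk2d above Camkv. Camk2b then also stood slightly above Camk2n1, with log2 levels of -3.12 and -3.18 relative to Camk2a.

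Each gene's log2 level per kilobase relative to Camk2a was also tested across all genes with limma. Calm2 was above Camk2a by 1.41 ± 0.162 (SE, adjusted p = 3.94e-18), and 0.0744% of 12102 genes were called above Camk2a, which is 9 genes. Without division by length Calm2 was below Camk2a by counts (log2 difference -0.94, limma adjusted p = 7.88e-12). The other 7 members were called below Camk2a, and so were 99.9% of all genes, so this count is that of the background. Relative to Calm2, 8 of 8 members were called below, beside 12099 of 12102 genes (100%), and 0.0165% above, namely Snap25 and Vsnl1. limma gave the common trend of variance all the weight here (infinite prior degrees of freedom), so these p-values rest on that trend and not on each gene's own 3 values.

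A pattern across libraries was common to 8 of 9 members. They were lowest in replicate 1 and highest in replicate 3, with Camk2g as the exception, while 17.7% of the 12509 genes past the filter had this pattern. That share is not matched for level: the median level was 459 CPM for the members and 20.1 CPM for all these genes. The median log2 deviation of the 9 members from their own means was -0.22, 0.03 and 0.19 in replicates 1, 2 and 3. Over all genes it was -0.00016, 0.0034 and -0.00069. The deviations in replicate 1 ran from -0.31 for Camk2n1 and -0.31 for Camk4 to -0.08 for Camk2b and 0.02 for Camk2g.

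Cell type markers moved between the same libraries. Glutamatergic neuron markers had median deviations of -0.25, 0.07 and 0.20, with 7 of 8 past the filter, and pan-neuronal markers -0.12, 0.06 and 0.09. GABAergic markers went the other way, at 0.16, -0.05 and -0.10, as did parvalbumin interneuron markers at 0.47, -0.09 and -0.30. Interneuron markers were not uniform. The somatostatin interneuron list, with 2 of 3 past the filter, had medians of -0.18, -0.07 and 0.24, but its 2 genes went opposite ways. Its highest gene, the neuropeptide gene Sst, was at 429, 551 and 895 CPM and was called for spread (edgeR F ratio 17.8, adjusted p = 0.0281). The deviations of Sst were -0.47, -0.11 and 0.59. Those of the other gene, Crhbp, were 0.12, -0.02 and -0.10, in the direction of the GABAergic list. Immediate early genes were at -0.40, 0.19 and 0.29. Over the 5 nuclear RNAs the medians were 0.55, 0.03 and -0.60, and 3 of 5 were called for spread. The highest of them, Malat1, was itself at 1.35, -0.42 and -0.93. The share of reads in genes was 61.9%, 67.6% and 70.7%. With the glutamatergic median deviation subtracted in each library, 1 of 9 members was lowest in replicate 1 and highest in replicate 3, beside 3.17% of all genes, and the members' median deviations were 0.04, -0.04 and -0.01. On that scale Camk2a was at 0.02, -0.02 and -0.01, Nrgn at -0.01, 0.0036 and -0.0080, and Camk2g at 0.27, -0.02 and -0.27. Camk2b was at 0.17, -0.04 and -0.14 and Camk2d at 0.09, -0.05 and -0.06. Camk2n1, which kept the pattern, was at -0.06, -0.05 and 0.10. With the pan-neuronal median subtracted, 6 of 9 had the pattern, beside 8.14% of all genes. The part of cell composition or RNA quality in the members' pattern was not tested. In such bulk RNA, fewer cells of a type and less RNA per cell cannot be told apart.

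**Figure D3:**
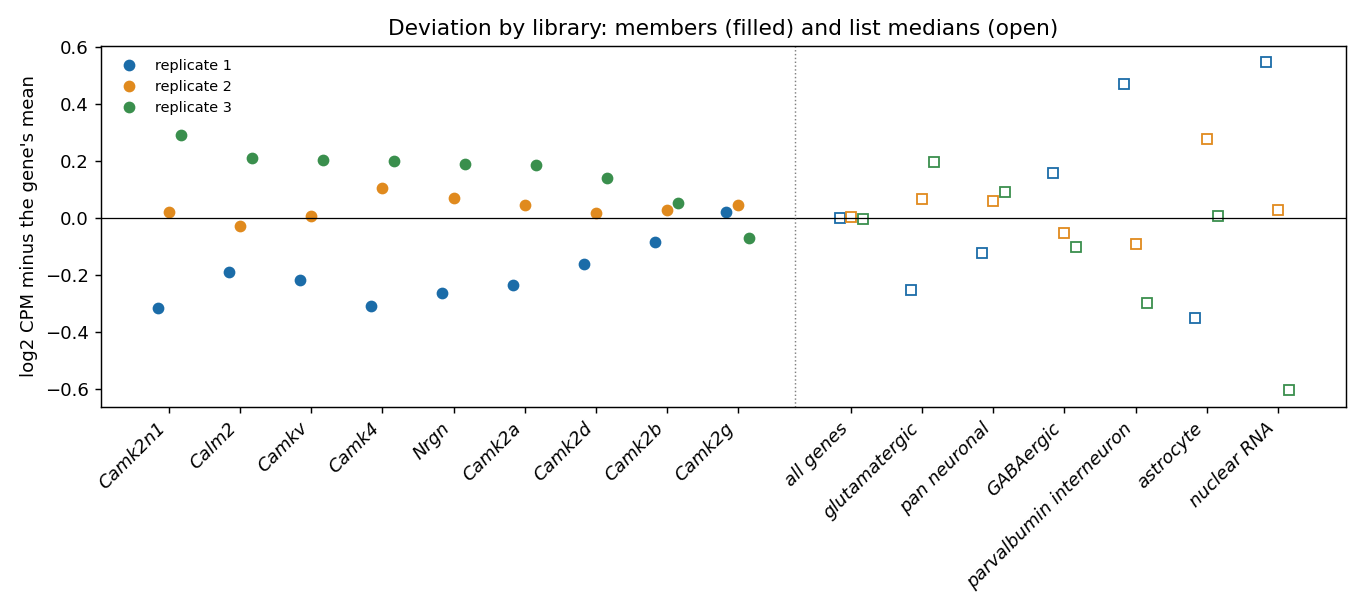
Deviation of log2 CPM from the gene's mean over 3 libraries, for each member (filled points) and as the median of all genes past the filter and of marker lists (open squares), coloured by replicate. Members other than Camk2g lie below 0 in replicate 1 and above 0 in replicate 3, as the glutamatergic median does, and the GABAergic and nuclear RNA medians lie the other way.

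Glial and vascular markers were measured as well. Of 10 astrocyte markers 10 passed the filter, with a summed level of 2561 to 4101 CPM that was lowest in replicate 1. The single markers were not uniform: 6 were lowest and 3 highest in replicate 1, beside 4575 and 4550 of 12509 genes. Oligodendrocyte markers passed in 7 of 8, summing to 489 to 669 CPM, microglial markers in 5 of 8, at 42.2 to 65.4, and endothelial and mural markers in 4 of 8, at 18.4 to 28.7. The 4 endothelial and mural markers past the filter were each lowest in replicate 1, as were 36.6% of all genes past the filter. Rgs5 was the highest of these markers by mean, at only 8.10 ± 2.08 CPM (SD, n = 3). The endothelial gene Cldn5, not past the filter, had 2 counts in replicate 1 and 0 in the others. Their part in the members' levels was not tested.

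None of the 9 members was more variable between libraries than genes of its level by edgeR's quasi-dispersion test at an adjusted p of 0.05, beside 0.0879% of 12509 genes. Camk2n1 had the highest F ratio of the members, 5.48 (edgeR adjusted p = 0.681), followed by Camk4 at 4.08 (edgeR adjusted p = 0.816). These 2 of 9 were under an unadjusted p of 0.05, as were 5.72% of all genes (715). Camk2g and Camk2b had the lowest F ratios, 0.214 and 0.307. The F ratio was above 1 for 7 of 9 members and for 37.8% of all genes. Leaving out a library moved some of these counts. The F ratio was above 1 for 4 of 9 members without replicate 1 (30.7% of all genes). It was above 1 for 4 of 9 without replicate 3 (31.5%) and for 7 of 9 without replicate 2 (33.6%). Without replicate 3, 0 of 9 members were under an unadjusted edgeR p of 0.05, beside 5.62% of all genes. That count was also 2 of 9 without replicate 1 and without replicate 2 (5.31% and 5.02% of all genes), but not for the same genes. Without replicate 1 the 2 highest F ratios were those of Camk2n1 (4.54) and Calm2 (3.96), and Camk4 was at 0.515. Without replicate 2 they were those of Camk2n1 (6.76) and Camk4 (4.84).

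**Figure D4:**
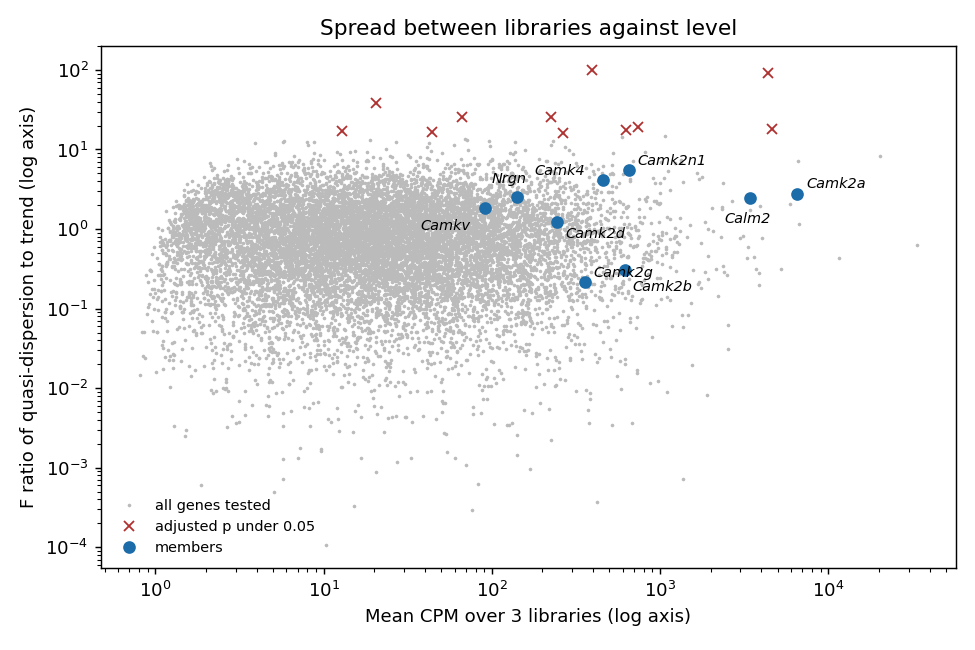
F ratio of each gene's quasi-dispersion to the trend at its level against mean CPM, on log axes, for all genes tested (grey), the genes past an adjusted p of 0.05 (crosses) and the 9 members (blue). The members lie within the cloud, from 0.214 for Camk2g to 5.48 for Camk2n1, and none is among the 11 crosses.

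The members were set beside 55 other genes listed for calmodulin signalling, of which 50 passed the filter. In this wider group 50 of 50 were called below Camk2a per kilobase, like 99.9% of all genes. None of them was called more variable, beside 0.0879% of all genes. At an unadjusted edgeR p under 0.05 there were 8 of 50, beside 5.72% of all genes. The pattern lowest in replicate 1 and highest in replicate 3 was present in 17 of 50 (34%) beside 17.7% of all genes, and the opposite one in 15 of 50, beside 17.6% of all genes. Calcineurin, the calmodulin-dependent phosphatase, had its catalytic gene Ppp3ca highest by mean CPM at 1100, 1452 and 1533 CPM, lowest in replicate 1. Of the 8 calcineurin genes past the filter 3 were lowest and 4 highest in replicate 1. The same held for 4575 and 4550 of all 12509 genes, so these counts are near the background. Median deviations of the calcineurin list were 0.05, 0.02 and -0.11. The testis-type regulatory gene Ppp3r2 was the lowest, with 4 counts in replicate 2 and 0 in the others.

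Among calmodulin-regulated enzymes the extremes were Rasgrf1, a Ras exchange factor, at 902 ± 73.8 CPM (SD, n = 3) and Pde1c, a phosphodiesterase, at 6.24 ± 2.34. Of genes for CaMKII partners and substrates, Kalrn, which encodes a guanine nucleotide exchange factor of dendritic spines, was at 8332, 6240 and 5221 CPM, highest in replicate 1, and Actn2 was the lowest at 3.85 ± 1.07. Of the nuclear list, the calmodulin-binding transcription activator Camta1 was at 1471 ± 37.5 CPM and Crem at 6.37 ± 2.20. Dclk1, a doublecortin-like kinase, led the list of other calmodulin and related kinases at 1849 ± 184 CPM, and Dapk2 was the lowest, with 1, 1 and 12 counts.

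**Figure D5:**
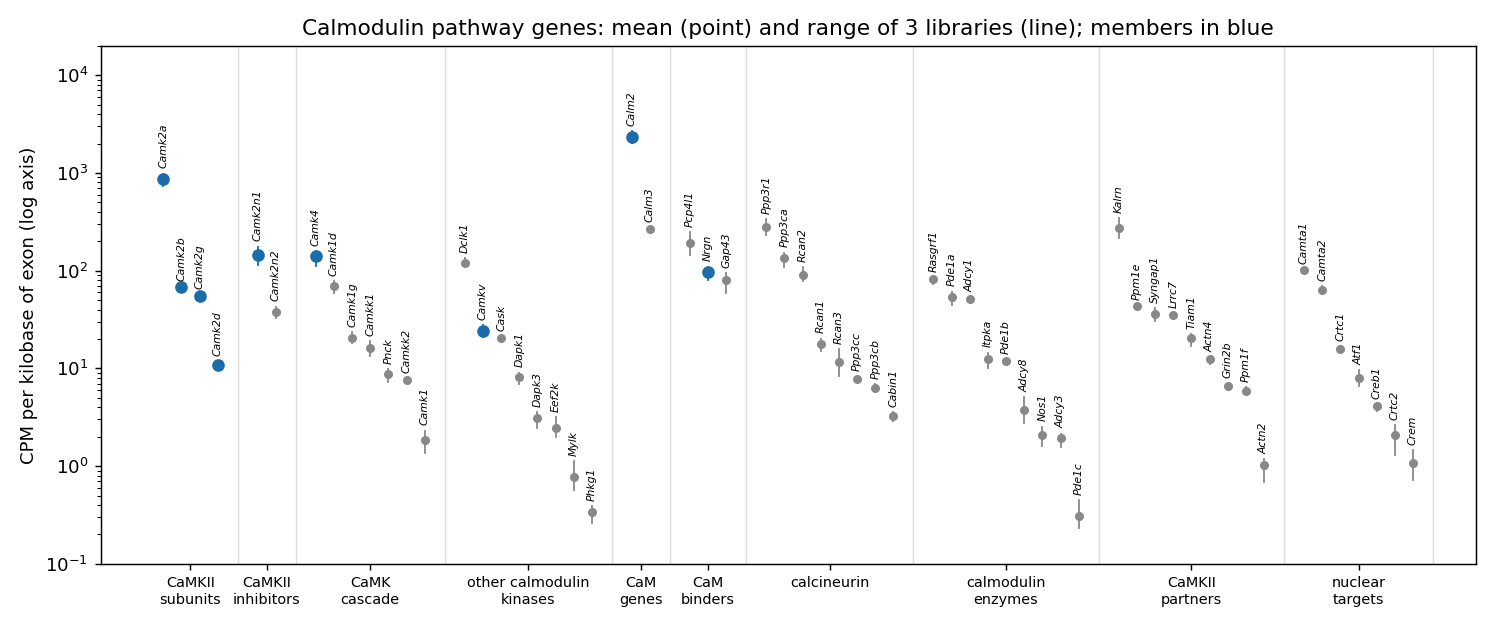
CPM per kilobase of union exon (log axis) of the members (blue) and the other genes listed for calmodulin signalling (grey). Genes past the filter are drawn, grouped by role, with the mean as a point and the range of 3 libraries as a line. Calm2 and Camk2a are the highest of the genes drawn.

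The genes nearest in log2 CPM over the 3 libraries are given for 4 of 9 members, as a description over 3 points that share library and depth. Camk2a lay closest to Ywhaz, a 14-3-3 gene (distance 0.137). Camk2n1 lay closest to Egr1, an immediate early gene (0.144), and Ntrk2, the BDNF receptor gene (0.158). Calm2 lay closest to Tubb4a and Gapdh (0.207 and 0.252), and Nrgn to Skil and Gpd2 (0.0618 and 0.0667).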

How the data were processed

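Each library has 1 deposited table of raw read counts by gene symbol. STAR 2.0.0e, HTSeq and the mm10 build are named in the submitters' processing notes. No strand setting, counting mode or annotation release is given in the sources used here. The 6 rows that name no gene were left out (no feature 12.8% to 16.4%, ambiguous 2.37% to 2.65%, not unique 13.8% to 19.4% of reads).

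Members and gene lists were chosen with earlier results of these data known. CPM used TMM scaling and log2 CPM a prior count of 2 (edgeR 4.0.16, R 4.3.3). Genes past edgeR's filterByExpr (minimum count 10) were tested for spread with an intercept-only robust quasi-likelihood fit (upper tail of the F ratio), and for log2 level per kilobase relative to Camk2a or Calm2 with an intercept-only limma fit (3.58.1, trend, two-sided), each with Benjamini-Hochberg adjustment over all genes at 0.05. Both were tested on simulated data. Exon lengths were read from GENCODE M21 (GRCm38, which mm10 denotes) for 96.8% of the genes tested. Library pairs differed beyond sampling noise (chi-square 12.3 to 28.5 per degree of freedom). Counting limits cover counting error only. All members were named. Of each pathway list the highest and lowest other gene by mean CPM, any called for spread, and Calm3, Camk2n2, Camkk2 and Gap43 were named. Of each marker list the highest gene and those at 0 could be named, and the nearest genes for Camk2a, Camk2n1, Calm2 and Nrgn. Calml4, Camkk1 and Crhbp were added after their values were seen. Cldn5, at 0 in replicates 2 and 3 only, was named as well. Some planned results are not reported here.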

Additional observations from a re-analysis of the deposited data

How the results depend on the processing

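Of 54 deviations of members recomputed under other scalings, 53 kept their sign. The exception was Camkv in replicate 2, at 0.0093 and, with total gene counts, -0.00058. No member was called more variable under any of the other scalings, filters or left-out replicates, though F ratios crossed 1 when replicate 1 or 3 was left out. Of 162 log2 levels relative to Camk2a or Calm2, 160 kept their direction and call. The count of more variable genes was 66 with no filter, 5 without robust moderation, and 4 to 9 with a replicate left out, the lowest without replicate 2. The alternatives of the longest coding transcript, the total without nuclear RNAs and the subtracted marker medians were chosen after seeing the data.

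Length is the setting that turned results. With no length, 3 genes were above Camk2a and 9 above Calm2. The log2 level relative to Camk2a became -0.94 for Calm2, and that relative to Calm2 0.94 for Camk2a. Of the 9 places in the order, 3 held per kilobase of the longest transcript and of the longest coding transcript, and 1 held with no length. Camk2n1 over Camk4 turned to -0.21 for both transcript lengths. Nrgn over Camk2b turned to -0.63 (longest), -0.66 (longest coding) and -2.13 (no length), Camkv over Camk2d to -0.66, -0.66 and -1.42, and Calm2 over Camk2a to -0.94 with no length. The Camk2a share was 84.2% by counts, 81.8% per longest and 81.6% per longest coding transcript, Camk2b 8.03%, 9.39% and 9.61%, Camk2d 3.15%, 2.75% and 2.75%, and Camk2g 4.65% by counts. The pattern of low replicate 1 and high replicate 3 held for 8 members under each scaling, and for 1 relative to the glutamatergic median.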
